A study of Homo sapiens with 23 samples.

Results

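Human lung fibroblasts of the established cell line CCL-75 were given TNF and IL-17 together for 72 hours (the group Pre_only, 3 arrays) or were left untreated (Control, 4 arrays), and Illumina bead arrays with a single colour were used to measure their mRNA. These 7 of the study's 23 arrays were chosen by the group in their titles, and all 12994 genes detected on at least 3 of the 23 arrays were compared. Cells of neither group received IL-13 or the neutralising antibody to IL-13Ra2 that was used in other groups of the study. The cytokines were given only in combination, so no array shows either of them alone, and their doses are not given in the sources used here. Cells came from passage 6 and passage 8 of the line, each with an experiment A and an experiment B, and an array is named by both (P6-A). Pre_only comprised P6-A, P6-B and P8-B, so its passage 8 values rest on 1 array. Each passage had a beadchip of its own, and the effect of the chip cannot be told apart from that of passage. The labels call A and B technical replicates while the design text calls them independent experiments, so the p-values measure a spread between arrays that may be partly technical. That spread was pooled over all 23 arrays, including those with IL-13 or antibody. The protocol goes on to a wash and 20 hours of IL-13 for other wells, and it does not give the hour at which Pre_only and Control cells were lysed.

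TNF signals through its receptors to NF-kB and AP-1, and IL-17 signals through a receptor complex whose adaptor ACT1, encoded by TRAF3IP2, both activates NF-kB and slows the decay of short-lived chemokine mRNAs. In fibroblasts the pair is known to induce neutrophil-attracting CXC chemokines and IL-6. IL13RA2 encodes a receptor that binds IL-13 with high affinity and is widely described as a decoy, and its induction by the pair is the subject of the study.

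Level below means the log2 normalised intensity of a gene's brightest kept probe, and change means the difference in level between Pre_only and Control, with passage as a blocking term, followed by the standard error (SE) of the fit. A gene was called when its p-value, adjusted over all genes with the Benjamini-Hochberg method, was under 0.05. Per-array levels are listed in the order P6-A, P6-B, P8-A and P8-B for Control and P6-A, P6-B and P8-B for Pre_only. A gene is described as undetected in a group if its detection p-value was never below 0.05 there. The level of such a group was raised, array by array, to the dimmest detected level before the fold was taken, and that fold is written "at least". Genes beyond the 25 largest rises, the 25 largest falls and, for each list, the 4 called members with the largest change and the brightest uncalled member were picked for a known role with all values in view. On the 7 arrays between 18566 and 19778 probes were detected, and levels correlated at 0.992 to 0.995 between arrays of the same group and passage, over all genes, and at 0.962 to 0.975 between arrays of different groups in the same passage. As labelled, the cells carried fibroblast mRNAs, with all 14 fibroblast markers among the tested genes. Of other markers 3 of 10 leukocyte, 3 of 10 epithelial and 2 of 8 endothelial ones were tested, without EPCAM, CDH5 and PTPRC. Even without the detection filter only 3 leukocyte, 5 epithelial and 3 endothelial markers had a usable probe. Most of the untested markers could thus not have been counted in any cells, and these counts do not show that other cells were absent.

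The 5 genes used as markers of the treatment separated the groups on every array, as did 3475 of all 12994 tested genes. CXCL6, a neutrophil chemokine, had levels of 4.99, 5.09, 4.46 and 4.30 on the Control arrays and 13.59, 13.28 and 13.58 on the Pre_only arrays. For CXCL5, a close relative, the levels were 4.30, 4.34, 4.56 and 4.33 in Control, where it was undetected, and 12.80, 12.63 and 13.00 in Pre_only. CXCL1 stood at 4.89, 4.75, 4.47 and 4.48 in Control and at 12.01, 12.13 and 12.12 in Pre_only. All 3 were thus near the detection limit in untreated cells and among the brightest mRNAs after treatment, with no overlap between the groups. CCL20, which attracts cells bearing CCR6, was undetected in Control (4.39, 4.24, 4.53 and 4.55) and reached 9.97, 9.92 and 10.03 in Pre_only. IL13RA2 differed in that untreated cells already expressed it, at 7.29, 7.10, 7.96 and 7.91, and its level rose to 11.71, 11.32 and 11.15. The changes were 8.78 ± 0.18 for CXCL6 (adjusted p = 6.65e-26), 8.47 ± 0.10 for CXCL5 (7.6e-33), 7.47 ± 0.18 for CXCL1 (9.62e-25), 5.60 ± 0.12 for CCL20 (6.82e-26) and 3.85 ± 0.15 for IL13RA2 (1.43e-18). Expressed as folds, CXCL5 was at least 289-fold and CCL20 at least 40.4-fold higher than in Control, and IL13RA2 was 14.5-fold higher. Cells primed in the same way and given the antibody for the last 1 hour (Pre_Ab_only, 4 arrays) would be set against the same Control arrays, so their levels are only placed beside the others. The Pre_Ab_only means were 13.45 ± 0.30 for CXCL6, 12.62 ± 0.12 for CXCL5, 11.98 ± 0.19 for CXCL1, 9.75 ± 0.17 for CCL20 and 11.24 ± 0.05 for IL13RA2 (SD, n = 4).

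**Figure D1:**
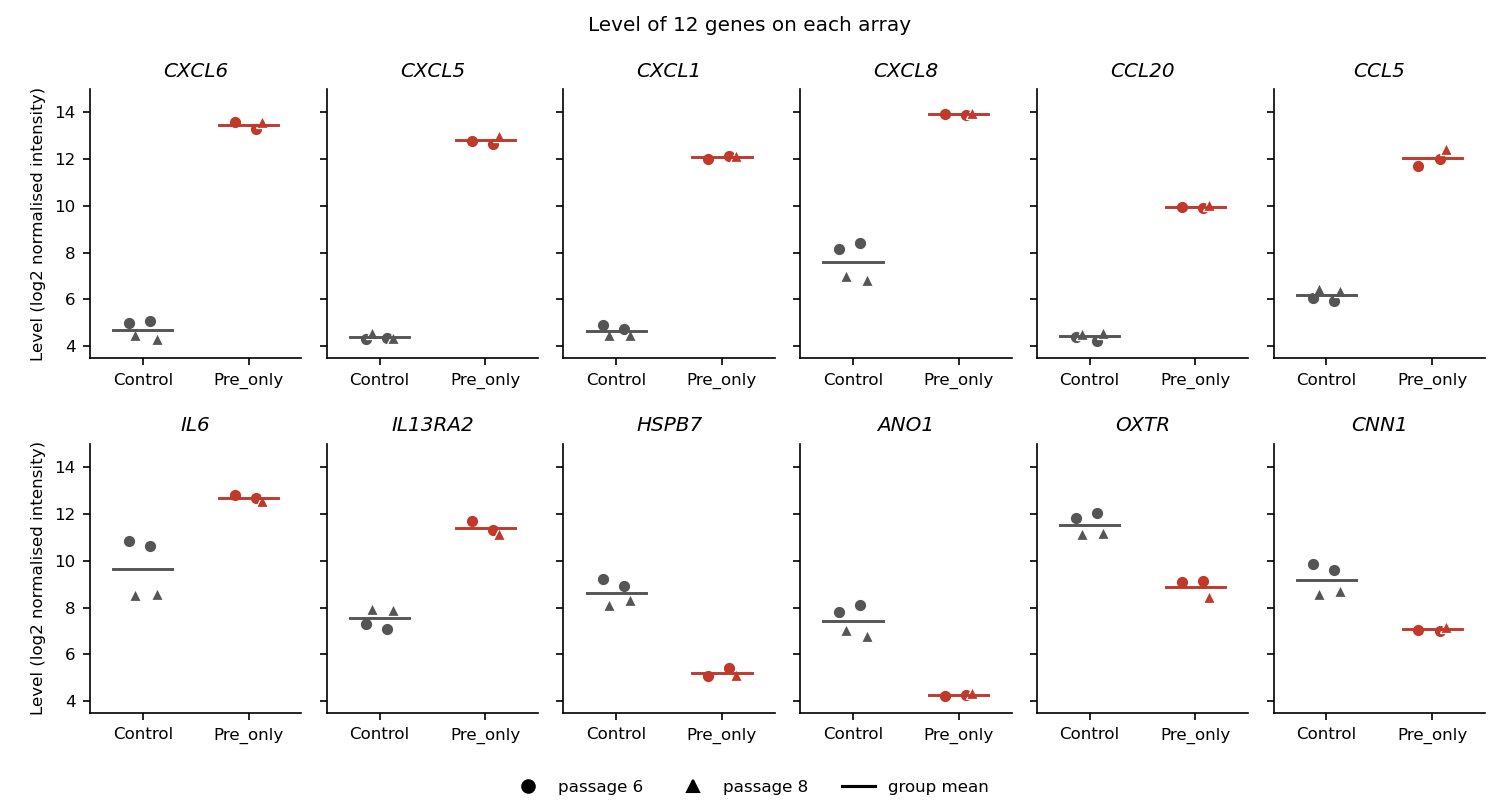
Level (log2 normalised intensity) of 12 genes on each Control array (grey, 4) and Pre_only array (red, 3), with circles for passage 6, triangles for passage 8 and a bar at the group mean. In every panel the groups do not overlap, as for 3475 of all 12994 tested genes. For CXCL8 and IL6 the Control arrays of passage 6 lie above those of passage 8 while the Pre_only arrays lie together.

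Across the genome the response was broad and lopsided in size. The test called 3223 of the 12994 genes (24.8%): 1559 rises (12.0%) and 1664 falls (12.8%). The median change over all genes was -0.009. Fewer cells of a kind and less mRNA per cell cannot be told apart in such bulk RNA. Large changes were mostly rises: 300 called genes rose and 234 fell at least 2-fold, 74 rose and 23 fell at least 4-fold, and 32 rose and 3 fell at least 8-fold. No gene fell 16-fold, whereas 16 rose by that much. Of the called genes, 3191 changed in the same direction in both passages and 32 did not. The call was made on the arrays of both passages together, so it largely fixes this count. There were 115 called rises from genes undetected in all Control arrays, and 85 called falls to genes undetected in all Pre_only arrays. With median scaling in place of quantile normalisation 742 genes rose and 1202 fell, which is 38.2% rises among the calls against 48.4%. The counts of called members given below for each group of genes are to be read against these shares. The groups did not overlap for 2634 of the 3223 called genes and 3475 of all 12994. Each statement below that a gene separated the groups is to be read against that.

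**Figure D2:**
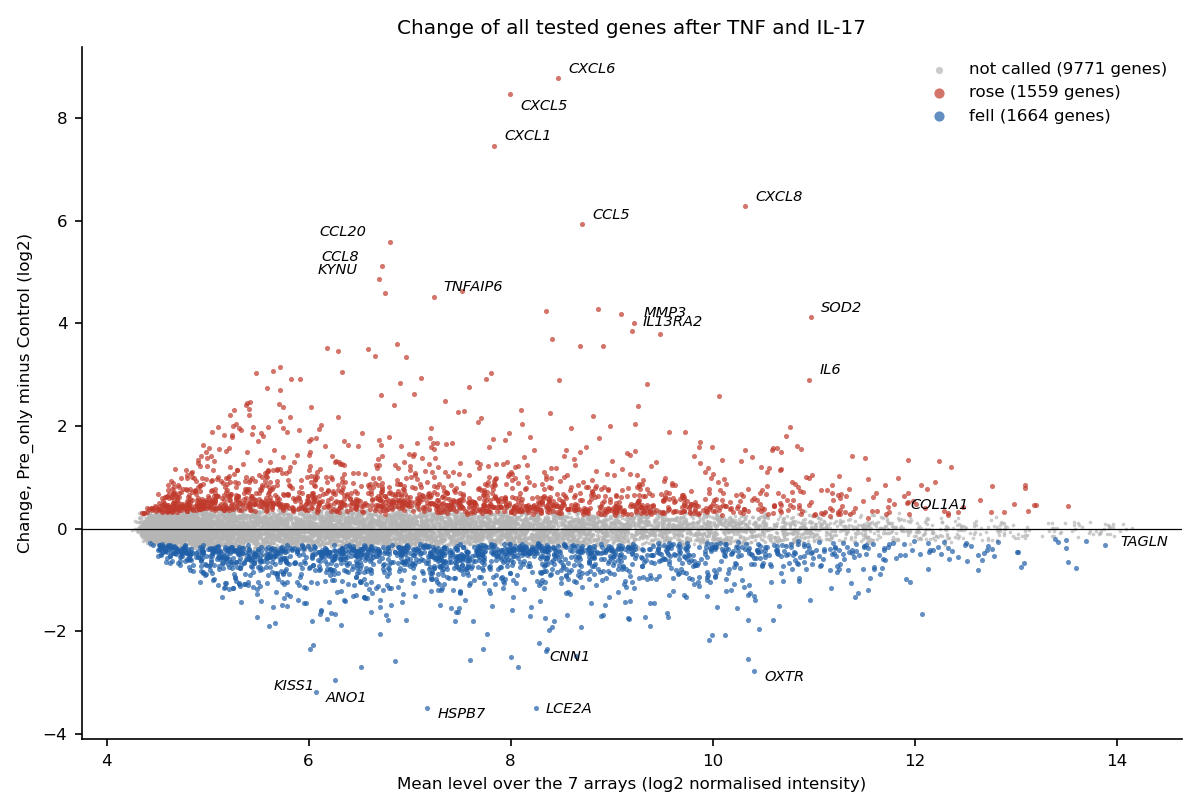
Change (Pre_only minus Control, log2) of all 12994 tested genes against the mean level over the 7 arrays (log2 normalised intensity), with the 1559 genes that rose in red, the 1664 that fell in blue and the rest in grey. Rises extend to 8.78 for CXCL6, while the largest falls, of HSPB7 and LCE2A, reach -3.49.

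Chemokines with the ELR motif, which bind the neutrophil receptors CXCR1 and CXCR2, had the highest median change of the 40 lists. Of 7 tested members 6 rose, none fell, and the median change was 6.30. CXCL8, which encodes IL-8, had levels of 8.16, 8.43, 7.01 and 6.82 in Control and 13.95, 13.90 and 13.99 in Pre_only, a change of 6.30 ± 0.24 (adjusted p = 2.78e-19). The highest level of any probe on each array was 14.21, so CXCL8 in treated cells lay close to the top of the scale, and its change, which is also the median of the list, may be understated. A dimmer CXCL8 probe changed by 7.53. CXCL2 was undetected in Control and at least 7.16-fold higher in Pre_only, at 7.21, 7.34 and 7.86. PPBP changed by 0.66 ± 0.15, and CXCL3, whose probe was undetected on all 7 arrays, missed the threshold (0.05 ± 0.14, adjusted p = 0.86). The transcripts of CXCL1, CXCL2 and CXCL3 are closely similar, and values of single probes to them are uncertain to that extent.

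These genes lie side by side in RefSeq's order on chromosome 4. From CXCL8 the protein-coding genes run CXCL6, PF4V1, CXCL1, PF4, PPBP, CXCL5, CXCL3 and CXCL2. PF4V1, a platelet factor 4 variant outside the lists and looked up after the values of its neighbours were seen, changed by 2.04 ± 0.14. RASSF6 on the near side of the cluster changed by -0.04 ± 0.14 and was not called. Promoters of 6 of these chemokine genes are shown because a kappaB-type sequence stands at nearly the same distance from the start in each. They are RefSeq windows of 300 bases in GRCh38.p14, from 250 bases before the annotated start to 50 after it, 5′ to 3′ on the strand of the gene, with the letters of the search motif GGANTTTCC (N is any base, both strands searched) in capitals.
CXCL6 (chr4:73836428-73836727, plus strand): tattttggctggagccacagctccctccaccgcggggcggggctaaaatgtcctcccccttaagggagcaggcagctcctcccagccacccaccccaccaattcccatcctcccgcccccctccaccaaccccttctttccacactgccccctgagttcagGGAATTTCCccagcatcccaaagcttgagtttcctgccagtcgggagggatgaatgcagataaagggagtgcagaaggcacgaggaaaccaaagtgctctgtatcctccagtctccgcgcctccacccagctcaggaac
CXCL5 (chr4:73998628-73998927, minus strand): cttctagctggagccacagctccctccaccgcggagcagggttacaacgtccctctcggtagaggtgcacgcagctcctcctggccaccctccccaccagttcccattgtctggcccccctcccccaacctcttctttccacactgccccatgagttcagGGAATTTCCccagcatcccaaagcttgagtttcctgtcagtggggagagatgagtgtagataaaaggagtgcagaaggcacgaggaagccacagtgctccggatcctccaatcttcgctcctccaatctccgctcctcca
CXCL1 (chr4:73869143-73869442, plus strand): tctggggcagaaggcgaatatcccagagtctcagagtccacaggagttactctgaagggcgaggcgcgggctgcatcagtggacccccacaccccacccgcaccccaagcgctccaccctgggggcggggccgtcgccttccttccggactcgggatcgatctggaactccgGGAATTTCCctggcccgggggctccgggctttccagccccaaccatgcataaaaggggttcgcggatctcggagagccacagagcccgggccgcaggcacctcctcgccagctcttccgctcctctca
CXCL8 (chr4:73740319-73740618, plus strand): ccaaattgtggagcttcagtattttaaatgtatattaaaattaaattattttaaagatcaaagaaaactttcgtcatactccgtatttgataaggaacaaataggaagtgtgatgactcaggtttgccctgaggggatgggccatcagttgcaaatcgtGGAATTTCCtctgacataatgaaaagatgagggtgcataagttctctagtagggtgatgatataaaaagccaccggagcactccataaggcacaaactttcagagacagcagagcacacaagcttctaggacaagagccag
CXCL2 (chr4:74099146-74099445, minus strand): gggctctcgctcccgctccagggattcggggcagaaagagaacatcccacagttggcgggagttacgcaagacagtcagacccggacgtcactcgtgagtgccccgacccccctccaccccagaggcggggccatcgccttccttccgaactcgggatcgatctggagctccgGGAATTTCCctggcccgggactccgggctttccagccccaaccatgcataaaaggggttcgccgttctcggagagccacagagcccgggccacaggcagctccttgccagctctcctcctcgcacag
CXCL3 (chr4:74038640-74038939, minus strand): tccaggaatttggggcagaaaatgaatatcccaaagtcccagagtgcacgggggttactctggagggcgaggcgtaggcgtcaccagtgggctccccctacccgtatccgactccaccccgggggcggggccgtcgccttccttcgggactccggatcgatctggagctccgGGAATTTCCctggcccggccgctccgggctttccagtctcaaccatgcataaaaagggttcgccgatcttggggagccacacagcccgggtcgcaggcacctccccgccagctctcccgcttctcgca

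Each of the 6 windows held the letters GGAATTTCC once, with the first letter 77 to 91 bases before the start, and the window of PPBP did not. The motif was present in 577 of the 35116 promoter windows in the table (1.64%) and in 265 of the 15060 windows of tested genes (1.76%). Among called genes it was present in 2.99% of the windows of genes that rose and 1.4% of those of genes that fell, in 5.45% where the rise was at least 2-fold and in 15% (6 of 40 windows) where it was at least 8-fold. The 6 are those of CXCL6, CXCL5, CXCL1, CXCL8, CXCL2 and CXCL10, so all but the last are among the promoters shown for having the motif, and the share adds nothing to that. Set at the motif and compared without gaps, the CXCL6 and CXCL5 windows were identical at 82.9% of 299 bases, including an unbroken run of 45 bases around the motif, and the CXCL1 and CXCL3 windows at 68.7% of 300 bases. CXCL8 matched the other 5 at 23.3% to 25.9% of bases. CXCL3, whose probe was undetected, carried the same letters. Among the other genes named by rule, a window with the motif was found for IL6, CXCL10, NFKBIA, NFKBIZ, MAP3K8, IFIH1, PTPN2 and COL7A1, which rose, for CXCL11 and IFNGR2, which were not called, and for ALPL and TRAF5, which fell. The AP-1 motif TGANTCA was present in 9.39% of the windows of genes that rose at least 2-fold, 6.62% of those that fell at least 2-fold and 5.62% of those of all tested genes. A match in a window is a description of its letters and not evidence of binding.

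Among the other CXC chemokines 4 of 7 rose and 1 fell. CXCL10, a ligand of CXCR3 on T cells that is usually induced by interferon, rose from 4.97, 4.82, 4.61 and 4.88 to 8.18, 8.19 and 8.36, a change of 3.47 ± 0.16. CXCL11, its neighbour on the chromosome and a ligand of the same receptor, was undetected in Control, and its change of 0.30 ± 0.12 did not pass the test (adjusted p = 0.0775). CXCL16 rose by 1.44 ± 0.12 and CX3CL1 by 0.52 ± 0.13. A dimmer CXCL16 probe changed by 0.005 and was not called. CXCL12, the homeostatic chemokine of stromal cells, moved the other way, from 7.72, 7.57, 6.80 and 6.90 to 6.98, 6.63 and 6.45 (-0.60 ± 0.20, adjusted p = 0.0285). The CXCL12 ranges of the groups overlapped across passages, although within each passage every Pre_only array lay below the Control arrays, and the call was lost under 10 of 23 alternatives.

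CC chemokines rose in 7 of 11 cases with no falls, and their median change was 1.16. CCL5, which attracts T cells and monocytes, had levels of 6.06, 5.93, 6.44 and 6.37 in Control and 11.71, 12.01 and 12.44 in Pre_only, and CCL8, a monocyte attractant, had 4.34, 4.27, 5.0 and 4.64 and 9.32, 9.73 and 9.79. The groups were far apart for both, with changes of 5.95 ± 0.11 and 5.12 ± 0.16. CCL7 rose by 3.60 ± 0.21 and CCL2, the main monocyte chemokine, by 1.32 ± 0.10. CCL2, CCL7, CCL11 and CCL8 follow each other on chromosome 17, and of these only CCL11, an eosinophil chemokine, was not called (0.32 ± 0.31). Its SE is pooled over all 23 arrays, including those with IL-13. In a fit of the 7 Control and Pre_only arrays alone CCL11 was called as a rise, and 8 of 11 CC chemokines rose. The uncalled CCL1, CCL3 and CCL19 had group means between 4.40 and 4.61, close to background.

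Of 27 tested cytokines and colony stimulating factors 14 rose and none fell, with a median change of 0.47. IL6 was abundant without treatment, at 10.86, 10.64, 8.56 and 8.59, and reached 12.81, 12.68 and 12.58 with it. The treated arrays lay within a narrow range while the untreated ones differed by passage, and the change was 2.91 ± 0.32. IL33, an alarmin stored in the nucleus, rose from 5.35, 5.42, 5.02 and 4.71 to 8.62, 8.41 and 8.61, a change of 3.50 ± 0.31. IL1B was undetected in Control and had levels of 6.37, 6.21 and 8.65 in Pre_only, so the array of passage 8 stood well above the others. EBI3, a subunit of IL-27 and IL-35, was undetected in Control and at least 2.99-fold higher in Pre_only. TNFSF10, encoding TRAIL, rose by 1.88 ± 0.29, TNFSF13B, encoding BAFF, by 1.67 ± 0.15, IL32 by 1.60 ± 0.16 and IL15 by 1.25 ± 0.13. IL18 was bright on all arrays and its change was -0.11 ± 0.14.

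Cytokine receptors rose in 17 of 37 cases and fell in 5, with a median change of 0.28, and with median scaling 8 rose and 5 fell. After IL13RA2 the largest rise was that of IL15RA, which presents IL-15 to neighbouring cells, from 4.93, 4.92, 5.09 and 5.14 to 7.30, 7.17 and 7.60 (2.36 ± 0.12). TNFRSF19 rose by 1.89 ± 0.23 and TNFRSF21, encoding death receptor 6, by 1.60 ± 0.13. The signalling receptor chain IL13RA1 changed by 0.65 ± 0.10 and was called, against 3.85 ± 0.15 for the decoy. IL1R1 and OSMR, receptors for further inflammatory cytokines, rose by 1.07 ± 0.20 and 0.43 ± 0.13. IL18BP, a secreted inhibitor of IL-18, fell by 1.10 ± 0.18.

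In the pathway of the treatment itself changes were smaller: of 24 receptors and adaptors 4 rose and 4 fell, with a median of -0.05. With median scaling 3 rose and 1 fell, and 2 fell without Control P6-B or without Pre_only P8-B. TNFRSF1B, the inducible TNF receptor, rose from 5.92, 6.38, 6.56 and 6.83 to 7.51, 7.57 and 8.22 (1.45 ± 0.14). MAP3K8, a kinase of the TNF and IL-1 pathways, rose by 1.41 ± 0.19 and TRAF3IP2 by 1.16 ± 0.12, while the adaptors TRAF5 (-0.73 ± 0.13) and TRAF6 (-0.47 ± 0.16) fell. A dimmer TRAF5 probe changed by -0.11 and was not called. Of 21 subunits, inhibitors and feedback genes of NF-kB 7 rose and none fell. They were led by ZC3H12A, the RNase regnase-1, which was undetected in Control and at least 4.53-fold higher, and by NFKBIZ, the inducible co-activator of IL-17 target genes, at 6.82, 6.79, 6.30 and 6.30 and 8.76, 8.86 and 8.92 (2.28 ± 0.16). A dimmer NFKBIZ probe changed by 0.23 and was not called. NFKBIA, which encodes the inhibitor IkB alpha, rose by 1.58 ± 0.11. TNFAIP3, the A20 feedback inhibitor, changed by -0.02 ± 0.24, RELA by -0.27 ± 0.14 and RELB by -0.03 ± 0.15, and none of these passed the test.

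Early response and C/EBP factors were split, with 5 of 27 rising and 5 falling, or 3 and 4 with median scaling. CEBPD, a co-activator of acute phase genes, rose by 1.44 ± 0.16 and CEBPB by 0.56 ± 0.13. KLF2, a repressor of NF-kB targets, fell from 10.26, 10.62, 10.19 and 10.17 to 8.94, 9.16 and 8.84 (-1.34 ± 0.11), and KLF6 (-0.86 ± 0.09), the AP-1 subunit FOSL1 (-1.08 ± 0.16) and EGR1 (-0.73 ± 0.16) fell as well. Of 18 factors of AU-rich mRNA decay and stability 3 rose and 1 fell. The one that fell was ZFP36 (-0.78 ± 0.11), which encodes tristetraprolin, a destabiliser of chemokine and cytokine mRNAs. Of 28 JAK, STAT, IRF and SOCS genes 5 rose and 2 fell, with IRF1 at 1.48 ± 0.11 and SOCS1 at 1.23 ± 0.11. Sensors of microbes and nucleic acids rose in 8 of 25 cases and fell in 3. IRAK3, an inhibitor of Toll-like receptor signalling, rose by 2.42 ± 0.16 and IFIH1, the RNA sensor MDA5, by 1.71 ± 0.19, while IRAK1, the kinase that IRAK3 opposes, fell by 1.05 ± 0.11.

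**Figure D3:**
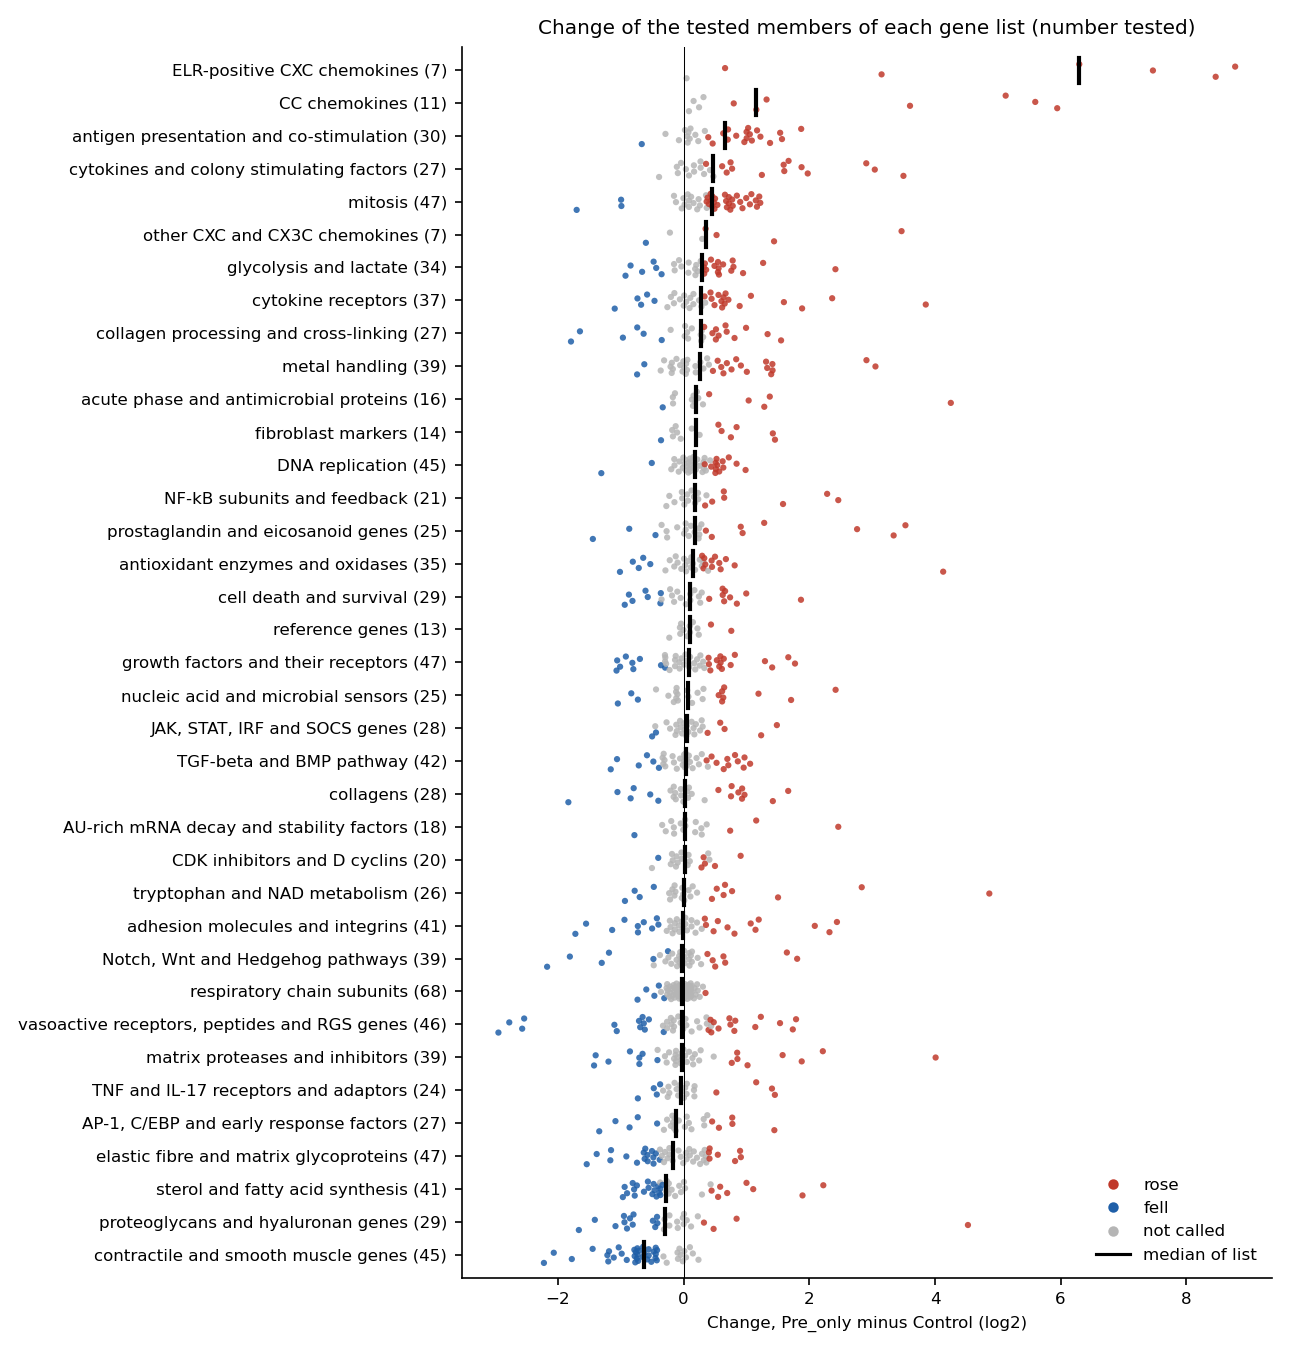
Change (Pre_only minus Control, log2) of every tested member of the gene lists with at least 7 tested members, with the number tested in brackets, members that rose in red, that fell in blue and uncalled in grey, and a bar at the median of the list. The ELR-positive CXC chemokines have a median of 6.30 and the contractile and smooth muscle genes one of -0.62.

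Acute phase and complement genes included 5 rises and 1 fall among 16. CFB, the complement factor B of the alternative pathway, had levels of 6.85, 6.69, 6.02 and 6.33 in Control and 11.34, 11 and 10.23 in Pre_only, a change of 4.25 ± 0.11 (adjusted p = 7.16e-24). C3, the substrate of that pathway, was undetected in Control and at least 2.29-fold higher, and SAA1, serum amyloid A, at least 2.01-fold. The antigen presentation list held 18 rises and 1 fall among 30 and had a median change of 0.67. Within it the immunoproteasome subunits PSMB9 (1.87 ± 0.16), PSMB8 (1.00 ± 0.13) and PSMB10 (0.97 ± 0.12), the peptide transporters TAP1 (0.84 ± 0.09) and TAP2 (1.22 ± 0.15) and the class I heavy chain HLA-B (1.57 ± 0.12) all rose. A dimmer PSMB9 probe changed by 0.29 and was not called. HLA-B, HLA-F (1.54 ± 0.14) and the pseudogene HLA-H (1.38 ± 0.13) are alike in sequence, so probes to them may read each other. PDCD1LG2, which encodes the inhibitory ligand PD-L2, was the member that fell (-0.66 ± 0.23), a call lost without Control P6-A, Control P6-B or Pre_only P6-B.

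Of 25 prostaglandin and eicosanoid genes, from a list that also holds receptors and transporters, 8 rose and 3 fell. PTGS2, the inducible cyclooxygenase, had 5.83, 5.74, 5.60 and 5.01 in Control and 8.73, 8.97 and 8.85 in Pre_only, and PTGES, the inducible prostaglandin E synthase that acts after it, had 4.48, 4.24, 5.20 and 4.72 and 8.47, 8.30 and 7.85. Both separated the groups, with changes of 3.34 ± 0.31 and 3.53 ± 0.18. PTGIS, the prostacyclin synthase, fell by 1.44 ± 0.18, and the constitutive PTGES2 was not called (-0.10 ± 0.11). Of the tryptophan and NAD genes 8 of 26 rose and 4 fell, or 5 and 3 with median scaling. KYNU, the kynureninase of tryptophan breakdown, rose from 4.26, 4.24, 5.09 and 5.0 to 9.55, 9.59 and 9.10 (4.86 ± 0.20) and NAMPT, which salvages nicotinamide to NAD, by 2.83 ± 0.19. TDO2 was undetected in Control, and detected on the Pre_only arrays of passage 6 but not of passage 8 (6.76, 6.52 and 4.48). NNMT, which methylates nicotinamide, fell by 0.93 ± 0.11.

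Genes of metal handling rose in 16 of 39 cases and fell in 2. SLC39A8, a zinc and manganese importer, rose from 5.21, 5.18, 5.02 and 4.75 to 8.23, 7.80 and 8.15 (3.05 ± 0.19), the metallothionein MT1F by 2.91 ± 0.16, and the iron exporter SLC40A1 by 1.31 ± 0.19. MT3, another metallothionein, was undetected in Control. SOD2, the manganese superoxide dismutase of mitochondria, rose from 9.40, 9.13, 9.02 and 9.28 to 13.44, 13.20 and 13.36, a change of 4.13 ± 0.10. Of 35 antioxidant genes it alone rose at least 2-fold, while 12 rose and 5 fell in all, or 3 and 6 with median scaling. GPX3, the secreted glutathione peroxidase, fell by 1.01 ± 0.15. Of 68 subunits of the respiratory chain 1 rose and 5 fell, so 8.82% of them were called against 24.8% of all genes. COX7A1, the muscle isoform of a complex IV subunit, had the largest fall (-0.73 ± 0.15). Without the Pre_only array P6-A 2 subunits fell, and without the Control array P8-B 3 fell.

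The collagens changed in both directions, with 9 of 28 rising, 6 falling and a median of 0.03, which became -0.13 with median scaling, -0.15 in passage 6 alone and -0.09 without the Pre_only array of passage 8. COL3A1, a fibrillar collagen, rose from 10.95, 11.15, 10.58 and 10.32 to 12.48, 12.17 and 12.01 (1.42 ± 0.14), and COL7A1, the anchoring fibril collagen, rose by 1.66 ± 0.14. COL1A1, the main chain of type I collagen and bright on all arrays, was not called (0.13 ± 0.11, adjusted p = 0.441). COL15A1, a basement membrane zone collagen, fell by 1.83 ± 0.21, and COL6A3 (-0.79 ± 0.10) fell as well. Of 27 genes for collagen processing 11 rose and 6 fell, or 6 and 5 with median scaling. The prolyl and lysyl hydroxylases P4HA2 (1.55 ± 0.11), P4HA1 (0.99 ± 0.13) and PLOD2 (1.34 ± 0.14) were among the rises. PCOLCE2 (-1.79 ± 0.14) and PCOLCE (-0.96 ± 0.14), enhancers of procollagen cleavage, and the cross-linking enzyme TGM2 (-1.65 ± 0.18) fell.

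Among glycoproteins and proteoglycans falls were more frequent than rises. Of 47 elastic fibre and glycoprotein genes 7 rose and 16 fell, with a median of -0.17, and 4 rose with median scaling or without the Pre_only array P6-A. LTBP2, a microfibril protein, went from 10.82, 11.04, 11.08 and 10.65 to 9.36, 9.32 and 9.41 (-1.54 ± 0.11) and FN1, fibronectin, from 8.71, 8.72, 9.08 and 8.84 to 7.58, 7.48 and 7.89 (-1.15 ± 0.13). The groups did not overlap for either. The proteoglycan and hyaluronan list had 4 rises and 13 falls among 29, or 2 and 11 with median scaling, and a median of -0.30. In it TNFAIP6, the TNF-inducible hyaluronan-binding protein TSG-6, rose by 4.52 ± 0.12, from 5.50, 5.40, 5.12 and 5.09 to 10.09, 10.00 and 9.47, while CEMIP, which degrades hyaluronan, fell from 12.91, 13.20, 12.45 and 12.38 to 11.48, 11.44 and 10.67 (-1.67 ± 0.11). A dimmer TNFAIP6 probe changed by 0.45. DCN, decorin, was among the brightest genes on all arrays and did not pass the test (-0.10 ± 0.07). Matrix proteases and their inhibitors, 39 in all, were split evenly between 8 rises and 8 falls. MMP3, stromelysin-1, rose from 8.06, 7.86, 6.99 and 7.01 to 11.61, 11.53 and 11.47 (4.01 ± 0.21), the aggrecanase ADAMTS5 by 1.88 ± 0.15, and the elastases CTSS and MMP12, undetected in Control, were at least 3.58-fold and 2.38-fold higher. The inhibitor TIMP1 was bright throughout (-0.04 ± 0.07, not called), and TIMP3 fell by 0.70 ± 0.15.

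Contractile and smooth muscle genes formed the most one-sided list downward. Of 45 tested members none rose and 33 fell (73.3% against 12.8% of all genes), and the median change was -0.62, or -0.78 with median scaling. CNN1, calponin, had levels of 9.85, 9.61, 8.59 and 8.71 in Control and 7.06, 7.01 and 7.16 in Pre_only, a change of -2.22 ± 0.19 (adjusted p = 8.65e-11). MYH11, the smooth muscle myosin heavy chain, had 11.69, 11.84, 10.11 and 10.03 and 9.19, 9.41 and 8.59 (-2.07 ± 0.16). For both genes untreated cells of passage 6 had higher levels than those of passage 8, and every Pre_only array lay below every Control array. Falls were also called for MYH10 (-1.78 ± 0.23), HSPB6 (-1.45 ± 0.14), MYL9 (-1.19 ± 0.15) and ACTA2 (-0.76 ± 0.12), the smooth muscle actin that marks myofibroblasts. TAGLN, at 13.83, 14.01, 14.03 and 14.06 and 13.89, 13.86 and 13.89, was not called by its brightest probe (-0.10 ± 0.07), which lay close to the top of the scale. Its other 2 probes changed by -0.60 and -1.25 and both passed the threshold in the fit of all kept probes. SRF, the transcription factor of these genes, fell by 0.62 ± 0.15 and its co-activator MRTFA fell by 0.48 ± 0.17, while MRTFB was not called (0.15 ± 0.16).

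The serum response element recognised by SRF, the CArG box, was present in 13 of 78 promoter windows of this list (16.7%, in 10 of the 39 genes with a window). It was present in 1.2% of the windows of all tested genes and 2.05% of those of called falls. Where the fall was at least 2-fold the share was 1.26% (4 of 317 windows). The list was put together by known role, so its share describes the list and not the falls at large. ACTG2, the enteric smooth muscle actin, is shown as the member with 2 boxes close to its start, and was chosen after its values were seen. Its change was -0.64 ± 0.07, and the capitals mark the boxes, whose first letters lie 110 and 73 bases before the start.
ACTG2 (chr2:73892758-73893057, plus strand): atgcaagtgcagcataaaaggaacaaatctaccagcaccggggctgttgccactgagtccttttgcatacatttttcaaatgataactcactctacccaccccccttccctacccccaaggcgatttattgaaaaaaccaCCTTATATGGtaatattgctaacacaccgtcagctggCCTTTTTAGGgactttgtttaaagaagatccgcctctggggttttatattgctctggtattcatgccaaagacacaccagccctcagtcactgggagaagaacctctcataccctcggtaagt

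Integrins and junction genes were divided, with 12 of 41 adhesion genes rising and 10 falling. PDPN, podoplanin, was undetected in Control and at least 4.27-fold higher, CLDN1, a tight junction claudin, rose by 2.32 ± 0.12, and ITGA1, a collagen-binding integrin subunit, by 2.09 ± 0.22. ITGA11, also collagen-binding, fell by 1.55 ± 0.16 and ITGA3, a laminin-binding subunit, went from 9.97, 10.06, 10.23 and 10.03 to 8.05, 8.19 and 8.76 (-1.72 ± 0.14), although a dimmer probe to ITGA3 changed by -0.19 and was not called. The leukocyte adhesion molecules VCAM1 and ICAM1 rose by 1.2 ± 0.09 and 1.14 ± 0.20.

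Several of the largest falls were in receptors and peptides of vascular and uterine smooth muscle, in a list where 14 of 46 genes rose and 13 fell (8 and 12 with median scaling). OXTR, the oxytocin receptor, went from 11.82, 12.05, 11.16 and 11.18 to 9.10, 9.12 and 8.45 (-2.77 ± 0.10, adjusted p = 3.39e-20), and RGS4, a brake on G protein signalling, from 11.62, 11.83, 11.20 and 10.99 to 9.19, 8.95 and 8.66 (-2.54 ± 0.12). RAMP1, the co-receptor for CGRP, fell by 2.57 ± 0.22. KISS1, the precursor of kisspeptin, fell by 2.95 ± 0.20 and was detected on 1 of 3 Pre_only arrays. The kinin receptors BDKRB1 and BDKRB2, which respond to bradykinin and its breakdown product, rose by 1.79 ± 0.14 and 1.53 ± 0.17.

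Growth factor and developmental pathways also moved in part. Among 47 growth factors and receptors 15 rose and 9 fell, or 6 and 9 with median scaling. FGF2 rose by 1.77 ± 0.17, from 8.21, 8.29, 8.08 and 7.93 to 9.76, 9.86 and 10.02, NRG1 by 1.67 ± 0.21, HGF by 1.30 ± 0.17 and GDF15 by 1.41 ± 0.14. Dimmer NRG1 probes changed by 0.16 and 0.28 and were not called, so the NRG1 rise rests on its brightest probe. For HGF a probe near background changed by 0.05 and another by 1.08. IGFBP5 was at the top of the intensity range and was not called. In the TGF-beta and BMP list 11 of 42 rose and 6 fell, with the BMP targets ID1 (0.82 ± 0.17), ID2 (0.86 ± 0.14) and ID3 (1.06 ± 0.18) among the rises and TGFB3 among the falls. TGFB3 stood at 8.16, 8.10, 6.35 and 6.36 in Control and 6.20, 6.25 and 6.15 in Pre_only, which is a change of -1.90 in passage 6 and -0.21 in passage 8. Of 39 Notch, Wnt and Hedgehog genes 7 rose and 6 fell, or 3 and 6 with median scaling. RSPO3, an enhancer of Wnt signalling, rose by 1.81 ± 0.15, WNT5B went from 11.04, 11.02, 10.72 and 10.83 to 8.54, 8.56 and 9.05 (-2.17 ± 0.13), and NOTCH3 fell by 1.81 ± 0.14.

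Mitotic genes rose in 29 of 47 cases and fell in 3, with a median of 0.46. Of the 29 rises 6 were at least 2-fold. CDC20, an activator of the anaphase-promoting complex, rose by 1.22 ± 0.16, TOP2A by 1.17 ± 0.15 and CDK1 by 0.94 ± 0.17. AURKA, the mitotic kinase, fell instead, from 10.15, 10.08, 9.0 and 9.18 to 8.03, 7.81 and 8.05 (-1.70 ± 0.17), and another of its probes changed by -1.73. STMN1 (-0.99 ± 0.12) and SPC25 (-0.99 ± 0.15) were the other falls, and a dimmer SPC25 probe changed by -0.16 and was not called. DNA replication genes rose in 13 of 45 cases and fell in 2, or 7 and 2 with median scaling, with CDC45 at 0.99 ± 0.13 and E2F7, a repressor of that programme, at -1.31 ± 0.15. Of 20 CDK inhibitors and D cyclins 5 rose and 1 fell, with 1 rising and 2 falling under median scaling and between 1 and 5 rising when each array was left out in turn, the lowest without Pre_only P6-A. Cells were not counted in the files used here, and whether more cells were in cycle cannot be read from these levels.

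Metabolic lists were mixed. Glycolysis and lactate genes rose in 17 of 34 cases and fell in 6, or 7 and 5 with median scaling, and PGK1 (0.76 ± 0.11) and GAPDH (0.44 ± 0.09), often used as reference genes, were among the rises, the call of GAPDH being lost with median scaling. PDK4, an inhibitor of pyruvate entry into the citric acid cycle, was undetected in Control and at least 4.43-fold higher. The glucose transporters SLC2A1 and SLC2A3 fell (-0.84 ± 0.19 and -0.92 ± 0.13) while SLC2A6 rose by 1.27 ± 0.13. Sterol and fatty acid genes rose in 8 of 41 cases and fell in 19, or 5 and 12 with median scaling. The falls included the biosynthetic enzymes HMGCS1 (-0.94 ± 0.13), FDPS (-0.90 ± 0.13), SCD (-0.81 ± 0.11) and FASN (-0.79 ± 0.10). The rises included CH25H, which makes 25-hydroxycholesterol and was undetected in Control (at least 4.09-fold higher), the sterol exporter ABCA1 (1.89 ± 0.22) and the oxysterol receptor NR1H3 (1.11 ± 0.15). Of 29 cell death genes 9 rose and 7 fell, or 5 and 6 with median scaling, with CASP1, the inflammatory caspase, at 1.87 ± 0.15 and the anti-apoptotic BCL2L1 at -0.87 ± 0.10.

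Some of the largest rises lay outside the inflammatory lists. HSD11B1, which regenerates active glucocorticoid from cortisone, rose from 7.92, 7.27, 7.93 and 8.27 to 11.91, 11.60 and 11.43 (3.80 ± 0.15), and MME, the peptidase neprilysin, from 6.71, 6.73, 6.94 and 6.90 to 10.88, 10.51 and 10.22 (3.70 ± 0.15). The other 3 MME probes, near background, changed by 0.33 to 0.47. SERPINB7 rose by 3.55 ± 0.13, COXFA4L3, a mitochondrial protein related to a complex IV subunit, by 4.64 ± 0.17 and CYP4B1, undetected in Control, at least 6.66-fold. Dimmer COXFA4L3 probes changed by 1.79 and 0.18, and the latter was not called. For SLC25A24, a mitochondrial ATP-Mg carrier, the brightest probe changed by 4.60 ± 0.15 whereas its other 2 probes changed by 0.06 and -0.16, so the rise rests on 1 probe. The fetal globins HBG1 and HBG2 had changes of 4.27 ± 0.25 and 4.18 ± 0.23, with HBG1 at 6.56, 6.61, 7.31 and 7.53 in Control and 11.41, 11.80 and 10.84 in Pre_only. They are near-identical neighbours on chromosome 11 and their probes cannot be taken as separate measurements. HBD, the next globin gene, was not called (-0.30 ± 0.19). ADH1A, an alcohol dehydrogenase with close paralogs, changed by 3.57 ± 0.39.

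The deepest falls came from genes with varied roles. HSPB7, a small heat shock protein of muscle, went from 9.21, 8.91, 8.12 and 8.31 to 5.08, 5.44 and 5.13 (-3.49 ± 0.15, adjusted p = 1.89e-17). ANO1, a calcium-activated chloride channel, was at 7.79, 8.09, 7.04 and 6.77 in Control and undetected in Pre_only, at least 6.91-fold lower, and its other 2 probes changed by -1.49 and -1.48. LCE2A, a late cornified envelope gene with close paralogs, fell by 3.49 ± 0.18. Further large falls were those of CORIN, a natriuretic peptide convertase (-2.70 ± 0.18), SEMA7A, a membrane semaphorin (-2.58 ± 0.12), KRT19, an intermediate filament protein (-2.34 ± 0.14), MGP, a calcification inhibitor (-2.38 ± 0.20), and PPP1R14A, an inhibitor of myosin phosphatase (-2.49 ± 0.19). ALPL, alkaline phosphatase, was at 6.42, 6.56, 6.35 and 6.41 in Control and undetected in Pre_only. For these 9 genes no Pre_only array reached the level of a Control array. The groups were likewise apart, in either direction, for 2634 of the 3223 called genes and 3475 of all 12994.

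Markers of fibroblasts were still detected after treatment, and few markers of other cells could be tested. All 14 fibroblast markers were tested, and 6 rose and 1 fell, or 4 and 2 with median scaling. Their changes ran from -0.36 to 1.45, with a median of 0.19, or 0.03 with median scaling. The mesenchymal transcription factors TCF21 (1.45 ± 0.14) and FOXF1 (0.75 ± 0.14) were among the rises. Of 10 leukocyte markers 3 were among the tested genes, and CD14 (1.19 ± 0.12) and CD68 (1.10 ± 0.16), which fibroblasts also express, rose, while LYZ did not pass the test (-0.14 ± 0.19). Of 10 epithelial markers 3 were tested and none was called, and of 8 endothelial markers 2 were tested, of which TEK rose (0.42 ± 0.12) and VWF fell (-0.54 ± 0.14). The call of TEK was lost under 5 of 23 alternatives, median scaling among them, and that of VWF under 2. The part of other cells in the changes above was not tested.

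The size of the change differed between passages for a minority of genes. The difference between the changes of passage 8 and passage 6 was called for 187 genes (1.44%), of which 144 were also called for the treatment. Of those 144, 128 had the larger change in passage 6. The treatment call rests on 2 Pre_only arrays of passage 6 and 1 of passage 8. It thus passes genes that changed in passage 6 more readily, which shapes this split, and the split over all 187 was not taken. CXCL8 changed by 5.63 in passage 6 and 7.08 in passage 8, and IL6 by 1.99 and 4.00. For both the untreated levels were lower in passage 8. The treated levels of CXCL8 lay close to the top of the scale, so a difference between passages may not be visible in them. IL13RA2 went the other way, with 4.32 in passage 6 and 3.21 in passage 8, as did KYNU, with 5.32 and 4.05. ADH1A (4.91 and 1.65) and AKR1C3 (3.96 and 1.05), enzymes of alcohol and steroid reduction, were already higher in untreated cells of passage 8 and lower in treated ones. CXCL6, CXCL5, CXCL1 and CCL20 showed no called difference between passages, with adjusted p-values from 0.105 to 0.928. The Pre_only array P8-B, on which every passage difference rests, could not be left out. Without each of the other Control and Pre_only arrays in turn, between 107 and 173 genes had a called passage difference. There were 114 without Control P6-A, 107 without Control P8-A and 116 without Control P8-B, and 49 with median scaling.

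**Figure D4:**
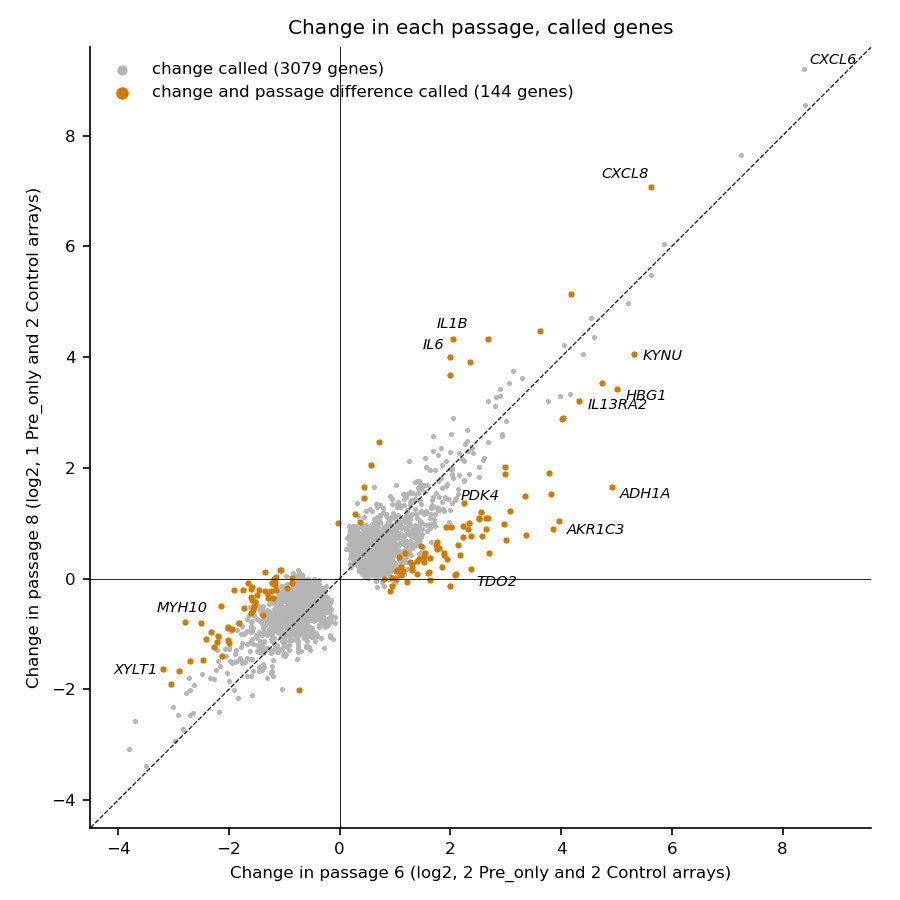
Change in passage 8 (log2, 1 Pre_only and 2 Control arrays) against change in passage 6 (log2, 2 and 2 arrays) for the 3223 called genes, with the 144 whose passage difference was also called in orange and equality as a dashed line. CXCL8, IL6 and IL1B lie above the line, and KYNU, IL13RA2, ADH1A and AKR1C3 below it.

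The same treatment was also measured in cells that then received IL-13 for 20 hours, on 8 arrays that share no sample with the 7 above: 4 with TNF and IL-17 first (Pre_IL13) and 4 without (IL13). Fitted separately, the 7 arrays gave 3014 called genes (23.2%) and the 8 arrays 2932 (22.6%). Of these, 2067 were called in both with the same sign, which is 68.6% of the first set and 70.5% of the second. Among the 543 genes that changed at least 2-fold on the 7 arrays, 542 had the same sign on the 8 arrays and 526 were also called there, and the exception was ISG20 (1.08 on the 7 arrays and -0.14 on the 8). Only 3 genes were called in opposite directions, CCL11, CCL26 and CFAP300. CCL26, the eosinophil chemokine eotaxin-3 and a classical IL-13 target, had mean levels of 5.51 in Control and 6.26 in Pre_only, but 10.53 in IL13 and 8.86 in Pre_IL13. CCL11, eotaxin-1, had 4.33 and 4.69 without IL-13 and 7.88 and 5.53 with it. These values describe cells with and without IL-13 side by side, and the difference between the 2 settings was not tested here. Of the markers, CXCL6 differed by 8.40 between Pre_IL13 and IL13, CXCL5 by 8.18, CXCL1 by 7.43, CCL20 by 5.49 and IL13RA2 by 3.09. For SOCS1 the difference was 0.24 there beside 1.23 without IL-13, and for MAP3K8 0.46 beside 1.41.

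**Figure D5:**
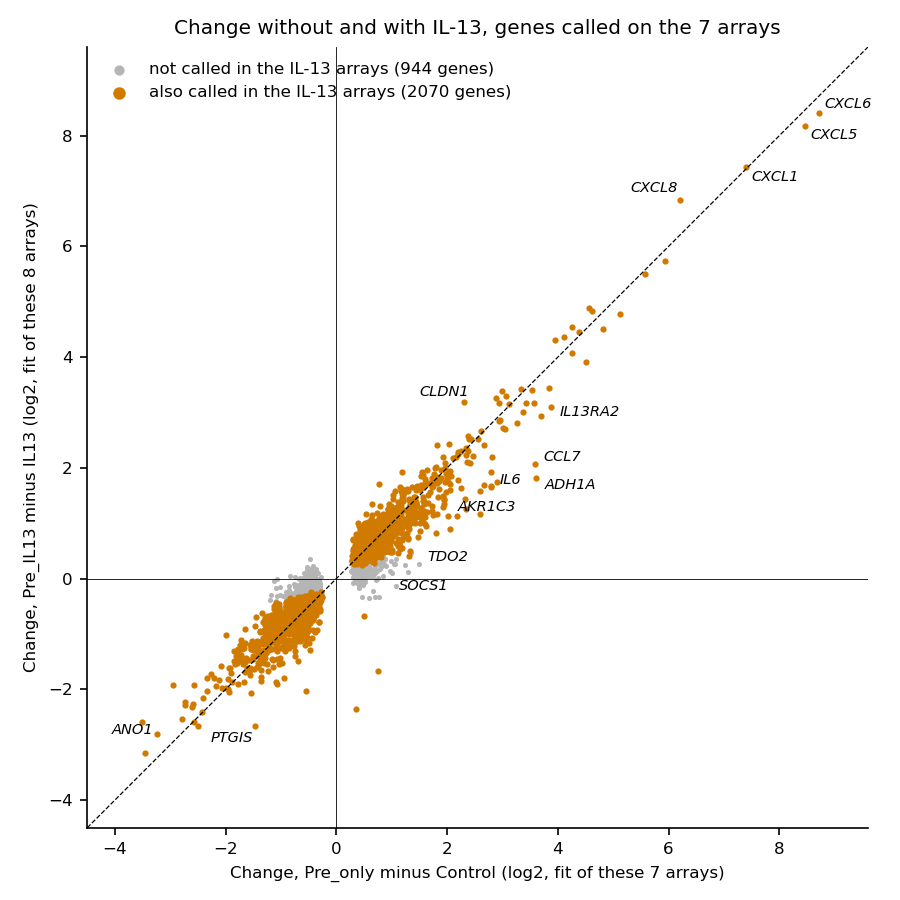
Change between Pre_IL13 and IL13 (log2, fit of these 8 arrays) against change between Pre_only and Control (log2, fit of these 7 arrays) for the 3014 genes called on the 7 arrays, with the 2070 also called on the 8 arrays in orange, the rest in grey and equality as a dashed line. CXCL6, CXCL5, CXCL1 and CXCL8 lie furthest up on both axes, and CLDN1 lies above the line while CCL7, ADH1A and IL6 lie below it.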

How the data were processed

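Total RNA of CCL-75 cells was hybridised to Illumina bead arrays, and 7 of 23 arrays, grouped by their titles, were compared. The authors deposited, per the file headers, a mean bead intensity, a bead standard error (a spread of the signal) and a detection p-value per probe and array, exported from GenomeStudio 2011.1 per the submitters' processing notes, and a table of normalised log2 values, which the authors made with a method not given in the sources used here. In R 4.3.3 with limma 3.58.1, intensities of 47323 probes were background-corrected (normexp, controls inferred from detection p-values, offset 16) and quantile-normalised by neqc. Of 24096 probes with a detection p-value under 0.05 on at least 3 arrays, 17541 had 1 gene symbol, and the brightest probe of each gene was kept. limma was fitted with group and passage on all 23 arrays (eBayes with intensity trend, two-sided, Benjamini-Hochberg), after tests on simulated data. Symbols were updated through gene IDs to RefSeq GRCh38.p14. Array number limits the precision, and the median bead standard error was 2.83% to 3.00% of the intensity. Named genes were the 5 markers, the 25 largest rises and falls with the same sign in both passages, and from each list up to 4 called members and the brightest uncalled member. To these were added the brightest called genes detected on all arrays of Control or Pre_only and on none of the other group. The genes, lists and tests were chosen with earlier results of these data known.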

Additional observations from a re-analysis of the deposited data

Results flagged for a closer look

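For 33 named genes that passed the threshold, the difference between the changes of passage 8 and passage 6 (passage 8 minus passage 6, log2) was itself called by limma's test of that difference. With 1 Pre_only array in passage 8, each value rests on that array, and passage cannot be told apart from beadchip.

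Among inflammatory genes that rose, the change was larger in passage 8 for IL1B (2.27), IL6 (2.01) and CXCL8 (1.45), and for the protease MMP3 (0.86) and the mitochondrial COXFA4L3 (0.95). It was smaller in passage 8 for IL13RA2 (-1.11), CCL7 (-1.15), PTGES (-1.14), IFIH1 (-1.28), CASP1 (-0.88) and TNFRSF19 (-1.44). Metabolic genes that rose less in passage 8 were ADH1A (-3.26), AKR1C3 (-2.91), TDO2 (-2.20), PDK4 (-1.87), ABCA1 (-1.73), KYNU (-1.27) and SLC2A12 (-1.09). The globins HBG1 (-1.60) and HBG2 (-1.22) also rose less there.

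Among genes that fell, a positive difference means a smaller fall in passage 8. This applied to the contractile and muscle genes MYH10 (1.69), PLN (1.41), CNN1 (1.21) and MYH11 (0.99), to the secreted factors TGFB3 (1.69) and FSTL3 (1.27), and to the matrix genes XYLT1 (1.56), SPOCK1 (1.04) and TGM2 (0.84). It also applied to RNF227 (1.23), AURKA (1.16), RAMP1 (1.13) and FOSL1 (1.09).

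In the Control group 1 named gene had an array set apart from the other 3: PLCXD3 stood at 6.15 on P6-B, with the nearest array at 5.62. Of the 222 named genes, those detected on at least 1 Control array were looked at. Chance sets apart about 1 in 20 groups by this measure if their arrays are alike. The Control arrays came from both passages, so that rate need not hold here.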

How the results depend on the processing

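For the treatment, 3223 genes were called and the other processing choices gave 2463 to 3266, except median scaling (1944), passage 8 alone with its single Pre_only array (1774, that array taken to vary like the others) and a test against a 1.2-fold change (1264). Leaving out each array gave 2501 to 3017. For the 8 arrays with IL-13, 2932 genes were called, 1869 with median scaling, 3604 in the fit of 23 arrays and 2251 to 3131 without each array. The passage difference was called for 187 genes and for 49 with median scaling. Without each Control or Pre_only array except Pre_only P8-B, which could not be left out, it was called for 107 to 173. There were 114 without Control P6-A, 107 without Control P8-A and 116 without Control P8-B. A replicate block of passage and experiment gave 3074 calls for the treatment and 2620 for the 8 arrays with IL-13. For the passage difference a block of experiment letter alone gave 187 calls. Experiments with the same letter mostly deviated little together (r between groups from -0.26 to 0.34 over 25 pairs of groups, median 0.005). These correlations cannot settle whether arrays with the same letter came from a common experiment. Of 184 named called genes 161 were called under all 23 alternatives and none changed sign. Most of these genes were picked for large changes on the same arrays, which largely fixes this count. The least stable were E2F5, CXCL12, CDKN3 and NDUFA11. With few arrays and probes near background, small changes of dim genes were not resolved.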

Other observations

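A few genes next to the chemokine loci or outside all lists also changed. AFP, alpha-fetoprotein, which lies 3 protein-coding genes away from CXCL8 on chromosome 4, changed by 1.27 (limma, adjusted p = 6.03e-09), while its neighbour ALB, albumin, changed by 0.16 and was not called. CCL23, a myeloid chemokine on chromosome 17, was undetected in Control and at least 1.6-fold higher in Pre_only. IL4I1, a secreted amino acid oxidase, was undetected in Control and at least 4.41-fold higher in Pre_only, and its level was 6.88, 6.88 and 6.57 on the Pre_only arrays.

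For the eotaxins the change with TNF and IL-17 had opposite signs without and with IL-13. On the 7 arrays CCL26 changed by 0.76 in Pre_only (limma, adjusted p = 0.0024), and on the 8 arrays with IL-13 by -1.67 in Pre_IL13 (adjusted p = 1.62e-05). CCL11 changed by 0.36 on the 7 arrays (adjusted p = 0.0249), though it was not called in the fit of all 23, and by -2.35 on the 8 (adjusted p = 0.000135). CFAP300, a cilia assembly gene, changed by 0.49 on the 7 arrays (adjusted p = 0.0299) and by -0.68 on the 8 (adjusted p = 0.00381). The levels of all 3 were higher in IL13 than in Control. They were noticed because their signs differed, so no further test was made.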
